A study of Homo sapiens with 20 samples.

Results

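SRGN, LAPTM5, TYROBP, CD14, LYZ, CD3D and CD79A are genes used as markers of leukocytes, and all 7 are rows of an mRNA-seq table of 36076 genes measured in lung cancer cell lines. They were chosen by their symbols because they could be detected, or were higher after treatment, in these same libraries. Their levels and changes are therefore given as a description, with no test, and nothing is supported with them. The comparison addresses whether, in each line, the 7 genes moved together or separately.

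The 6 lines, A549, CL1-0, CL1-5, PC9, H1299 and H1792, are established human lung cancer lines, and each gave 1 Mock library (treated with PBS) and 1 DAC library. DAC is decitabine, a cytosine analog that traps and depletes DNA methyltransferases, given at 100 nM for 72 hours and followed by 3 days in drug-free medium. Omni-ATAC-seq, which maps open chromatin by transposase insertion, was done in the same way on A549, CL1-5, PC9 and H1299. No line has a second library of the same treatment, so that the spread within a line is unknown and the lines are the replicates.

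Each gene has a known place in blood cells. SRGN encodes serglycin, the proteoglycan that packs proteases and other basic proteins into secretory granules. LAPTM5 is a lysosomal membrane protein that sends antigen receptors to degradation, and TYROBP (DAP12) is the signalling adaptor of many activating receptors of NK and myeloid cells. CD14 presents lipopolysaccharide to TLR4 and LY96 on monocytes, and LYZ is the lysozyme of monocytes, granulocytes and secretory epithelia. CD3D is a subunit of the T cell receptor complex, and CD79A is the signalling chain of the B cell receptor. CpG methylation of promoters is one of the ways in which tissue-restricted genes are kept silent, and DAC lowers it.

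Sequences at the loci are shown because the treatment acts on CpG sites. The promoters of 5 of the 7 genes were in the RefSeq promoter table, which gives 300 bases around each RefSeq start. SRGN and LYZ were not. The table's sequences (GRCh38.p14) were matched exactly to GRCh37, the build of the peak lists. Capitals mark CpG sites. The LAPTM5 promoter (chr1:31230572-31230871, minus strand) and the CD3D promoter (chr11:118213371-118213670, minus strand) hold 5 CpG sites each, and the TYROBP promoter (chr19:36399148-36399447, minus strand) holds 8, against a median of 14 over 35116 promoters.
LAPTM5 promoter: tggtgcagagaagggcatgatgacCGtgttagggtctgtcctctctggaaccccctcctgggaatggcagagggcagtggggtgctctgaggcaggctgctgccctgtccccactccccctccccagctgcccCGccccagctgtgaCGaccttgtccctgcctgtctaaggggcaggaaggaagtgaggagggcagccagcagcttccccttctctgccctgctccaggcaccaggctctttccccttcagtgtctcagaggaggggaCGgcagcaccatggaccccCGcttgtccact
TYROBP promoter: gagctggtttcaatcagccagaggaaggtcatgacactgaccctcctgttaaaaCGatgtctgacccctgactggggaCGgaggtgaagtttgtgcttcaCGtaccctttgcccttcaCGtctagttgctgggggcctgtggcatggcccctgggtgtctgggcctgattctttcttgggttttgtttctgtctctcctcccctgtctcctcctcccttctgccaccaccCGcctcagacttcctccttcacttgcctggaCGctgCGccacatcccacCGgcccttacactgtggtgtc
CD3D promoter: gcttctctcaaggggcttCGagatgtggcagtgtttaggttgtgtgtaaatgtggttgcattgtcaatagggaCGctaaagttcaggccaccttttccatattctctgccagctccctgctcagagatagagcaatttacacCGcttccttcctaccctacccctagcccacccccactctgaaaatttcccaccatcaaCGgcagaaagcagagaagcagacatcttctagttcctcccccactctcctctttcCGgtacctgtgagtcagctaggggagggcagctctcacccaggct

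The CD14 promoter (chr5:140012711-140013010) holds 8 CpG sites and the CD79A promoter (chr19:42381099-42381398) holds 4, so all 5 lie below the median of the table. The CD14 window lies 275 to 574 bp inside the gene from the GENCODE start, which is the start used for its peaks, and the other 4 windows cover that start. The AP-1 type motif TGANTCA, searched on both strands, is in the promoters of CD14 and CD3D and in 7.71% of all promoters. GAGGAAGT, a motif of the kind bound by the myeloid ETS factor PU.1, is in the TYROBP promoter, on the strand opposite to the one shown, and in 2.59% of all promoters.

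Values are FPKM, reads scaled by gene length and library size, with the whole reads behind them, which were recovered from the table. The libraries hold 22234485 to 25303899 reads on genes, except for H1299, with 59735913 in Mock and 52634234 after DAC. Among genes that have 1 to 20 reads, the read number is even for 85.5% and 81.9% of them in H1299 (Mock and DAC), and for at most 41.5% elsewhere, so that reads there are not independent counts. Ratios have exact 95% intervals that cover counting error alone and are too narrow for H1299. In a bulk library, more cells with a transcript and more of it per cell cannot be told apart.

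SRGN had the highest FPKM of the 7 genes in 10 of 12 libraries, and in both H1299 libraries TYROBP was above it. In Mock, A549 stood at an FPKM of 51.5, CL1-0 at 62.1, CL1-5 at 15.5, PC9 at 36.4, H1299 at 0.0860 and H1792 at 266. The DAC libraries stood at 65.6 (A549), 54.5 (CL1-0), 53.9 (CL1-5), 102 (PC9), 2.62 (H1299) and 424 (H1792). H1792 was thus the highest line and H1299 by far the lowest under both treatments, while CL1-0 alone was lower after DAC. The DAC to Mock ratio was 3.49 in CL1-5 (95% interval 3.16 to 3.86) and 2.81 in PC9 (2.61 to 3.03), and it was 30.5 in H1299, from 6 to 169 reads (13.7 to 84.2). It was 1.60 in H1792, 1.27 in A549 and 0.878 in CL1-0. Over the 5 lines other than H1792 the mean log2 change was 1.46 ± 1.57 (SD, n = 5), on the log2(FPKM + 0.1) scale used for all log2 values. In the order of the 12 levels, A549 after DAC and CL1-0 in Mock overlap in their counting intervals, as do CL1-0 after DAC, CL1-5 after DAC and A549 in Mock.

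LAPTM5 followed another order of lines. The Mock libraries of A549, CL1-0 and H1299 held an FPKM of 0.0428, 0.0259 and 0.0427, that of CL1-5 held 0.451, and those of PC9 and H1792 held 20.4 and 29.7. The DAC libraries of A549, CL1-0 and H1299 held 1.09, 0.155 and 1.08, that of CL1-5 held 5.19, and those of PC9 and H1792 held 29.9 and 54.9. PC9 and H1792 already expressed the gene in Mock, and the values were higher after DAC in 6 of 6 lines. The ratio was 25.4 in A549, from 3 to 90 reads (95% interval 8.42 to 126), 11.5 in CL1-5 (8.32 to 16.4) and 25.2 in H1299 (12.5 to 59.1). In CL1-0 it was 5.98, from 2 to 15 reads (1.39 to 53.9), and in PC9 and H1792, the lines with the highest start, it was 1.47 and 1.85. The mean log2 change was 2.19 ± 1.29 (SD, n = 5).

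TYROBP was listed at 0 reads in 4 of 6 Mock libraries. In A549 it went from 0 to 50 reads, an FPKM of 2.18 after DAC and at least 14.1-fold higher against a floor of 3 reads in the Mock library. In CL1-5 it went from 0 to 16 reads (FPKM 0.726 after DAC, at least 5.95-fold higher), and in PC9 from 0 to 19 reads (FPKM 0.905 after DAC, at least 5.69-fold higher). CL1-0 had 1 read in Mock and 21 after DAC, a ratio of 16.7 with a 95% interval of 2.69 to 692. H1299 stood apart in Mock, with 66 reads and an FPKM of 1.27, and had 131 reads and an FPKM of 2.73 after DAC, a ratio of 2.15. H1792, the line richest in SRGN and LAPTM5, had 0 reads in Mock and 3 after DAC, which is at the floor. TYROBP is thus high in H1299, where SRGN is lowest, and near 0 in H1792, where SRGN is highest.

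CD14 was highest in A549 under both treatments. Its FPKM was 4.23 in A549 in Mock and 7.38 after DAC, from 171 to 352 reads, a ratio of 1.74 (95% interval 1.45 to 2.11). In the other 5 lines the FPKM was at most 0.278 in Mock and at most 0.287 after DAC. In H1299 it went down from 16 to 6 reads, a ratio of 0.406 whose interval, 0.130 to 1.09, includes 1. LYZ was low in every line, at an FPKM of 0.518 to 0.912 in Mock and 0.472 to 1.33 after DAC, with at least 10 reads in 12 of 12 libraries. Its ratio was 2.51 in PC9, from 19 to 53 reads (1.46 to 4.48), 1.95 in CL1-5 and 1.46 in H1299, and it was 0.821 in CL1-0 and 0.861 in H1792, with 23 reads in Mock and 37 after DAC in A549. Every neighbouring pair of LYZ levels in the order of the 12 libraries overlaps in its counting intervals.

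The receptor chains were at the edge of detection. CD3D had 0 reads in 5 of 6 Mock libraries and 1 read in CL1-5. After DAC it had 11 reads in PC9 (FPKM 0.512, at least 3.29-fold higher), 10 in H1299 (FPKM 0.204), 8 in CL1-5 (FPKM 0.355) and 0 in A549, CL1-0 and H1792. The bound in H1299, at least 3.61-fold higher, is too high where its reads are not independent counts. CD79A had 0 to 21 reads in Mock and 3 to 15 after DAC. It went from 7 to 15 reads in A549 (ratio 1.82, 95% interval 0.697 to 5.26) and from 21 to 6 in H1299 (ratio 0.309, 0.102 to 0.792). The highest CD79A level, an FPKM of 0.395 in A549 after DAC, overlaps in its interval with the next, H1299 in Mock.

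Within a line, a gene was counted as higher or lower when its FPKM differed at least 2-fold and the higher library had at least 10 reads, among genes with at least 10 reads in 1 of the 2 libraries. Of 42 pairs of a gene and a line, 31 had the reads to be counted, 15 were higher after DAC and 2 were lower. Since the genes were chosen on this contrast, the shares of all genes are printed beside these counts and nothing is read from them. In A549, LAPTM5 and TYROBP were higher (2 of 6 with the reads, against 19.9% of all genes higher and 7.07% lower). In CL1-0 the same genes, LAPTM5 and TYROBP, were higher (2 of 4, against 9.7% higher and 1.74% lower). In CL1-5, SRGN, LAPTM5 and TYROBP were higher (3 of 4, against 8.67% higher and 5.59% lower). In PC9, SRGN, TYROBP, LYZ and CD3D were higher (4 of 6, against 12.7% higher and 2.08% lower). In H1299, SRGN, LAPTM5, TYROBP and CD3D were higher and CD14 and CD79A lower (4 and 2 of 7, against 18.8% higher and 6.8% lower). In H1792 none of 4 passed, against 14.0% higher and 6.01% lower.

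Across lines, TYROBP was counted as higher in 5, LAPTM5 in 4, SRGN in 3, CD3D in 2 and LYZ in 1. Without H1299 these numbers were 4, 3, 2, 1 and 1. The 6 lines gave 5 different sets of higher genes, and the largest held 4 of the 7. With H1299 reads divided by 2, an alternative chosen after seeing the data, SRGN, LAPTM5 and TYROBP were still higher there and CD79A lower, while CD3D and CD14 no longer had the reads.

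The ratios between the genes differed from line to line. The FPKM gained by LAPTM5 divided by that gained by TYROBP was lowest in CL1-0 (0.175), A549 (0.479) and H1299 (0.707), higher in CL1-5 (6.53) and PC9 (10.6), and highest in H1792 (183). The H1792 ratio rests on 3 reads of TYROBP. After DAC, SRGN stood at 352 times the FPKM of LAPTM5 in CL1-0 and at 2.44 times in H1299. Over the 12 libraries, the levels of the 21 pairs of genes had Pearson correlations from -0.42 (SRGN and TYROBP) to 0.80 (LYZ and CD3D), where the points share lines in pairs. Over the 6 lines, the log2 changes had Pearson correlations from -0.86 (SRGN and CD14) to 0.90 (LYZ and CD3D). Both values of LYZ and CD3D rest on at most 11 reads of CD3D in any library. The value of -0.86 rests, outside A549, on few reads of CD14. These went from 0 to 5 in CL1-0, 4 to 7 in CL1-5, 7 to 11 in PC9 and 16 to 6 in H1299, and were 13 and 13 in H1792.

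The leukocyte markers PTPRC, SPI1, MS4A1 and CD3E were at low levels in every library, while some genes of the pan-leukocyte list given below were not. PTPRC (CD45), the surface phosphatase of nearly all leukocytes, reached 15 reads in Mock and 18 after DAC, both in CL1-0, with an FPKM of at most 0.0759. In A549 after DAC it had 5 reads (FPKM 0.0236) beside 50 reads of TYROBP and 90 of LAPTM5, and in CL1-5 it had 0 reads under both treatments. In CL1-0 its 15 and 18 reads stood beside 2 and 15 of LAPTM5 and 1 and 21 of TYROBP. There it was above both in Mock and above LAPTM5 after DAC. In H1792 PTPRC went from 1 to 11 reads, beside 0 and 3 of TYROBP and 2413 and 4314 of LAPTM5. In PC9 it had 4 and 9 reads, beside 0 and 19 of TYROBP. SPI1, which encodes PU.1, had at most 4 reads in any library. MS4A1 (CD20) had 10 and 6 reads in H1299 and at most 1 elsewhere. CD3E, the partner of CD3D in the T cell receptor complex, had at most 2 reads in any library, also in PC9 and H1299, where CD3D had 11 and 10 reads after DAC.

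CD3G, the third chain of that complex and the gene next to CD3D, had 50 reads in H1299 in Mock and 66 after DAC (FPKM 0.228 and 0.326), and at most 3 reads elsewhere. CD247, the zeta chain, went from 7 to 29 reads in CL1-5, from 5 to 12 in PC9 and from 5 to 26 in H1299, and from 40 to 22 in H1792. CD79B, the partner of CD79A, was higher after DAC in 6 of 6 lines. It went from 6 to 67 reads in A549, 2 to 33 in CL1-0, 1 to 41 in CL1-5, 0 to 9 in PC9, 0 to 55 in H1299 and 1 to 17 in H1792. In the limma fit over 5 lines with the line as a block, the log2 change of CD79B was 2.36 (standard error 0.27, adjusted p = 0.0380 from limma). Its adjusted p from limma ranged from 0.0113 to 0.662 over 14 alternatives, with 4 of them under the threshold, and leaving out any 1 of the 5 lines ended the call. The fit kept genes by a mean FPKM over both treatments, which CD79B reached through its DAC libraries. In Mock its FPKM was 0.135 in A549, 0.0407 in CL1-0, 0.0177 in CL1-5 and 0 in PC9 and H1299. With no filter its adjusted p was 0.257 from limma, so nothing is supported with this call.

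**Figure D1:**
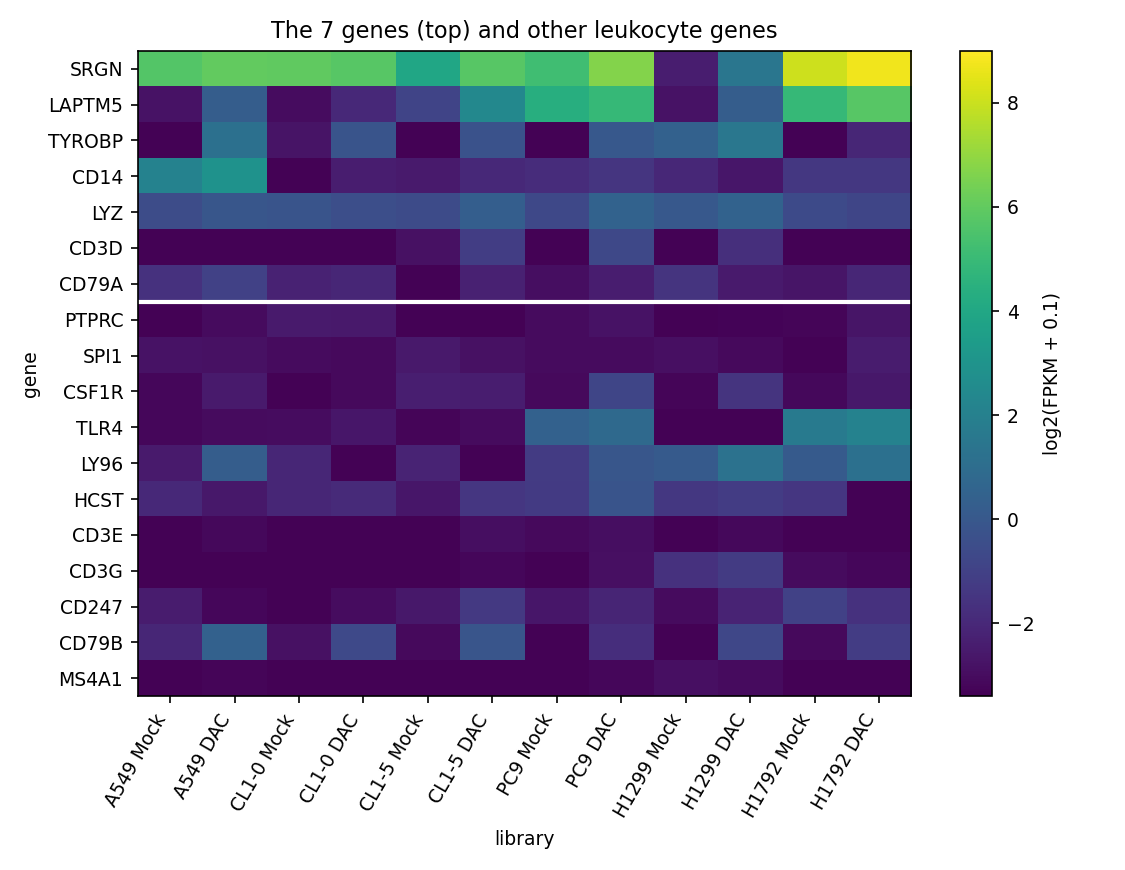
Level, as log2(FPKM + 0.1), of the 7 genes (above the white line) and of other leukocyte genes (below it) in the 12 mRNA-seq libraries. PTPRC, SPI1, CD3E and MS4A1 stay at the bottom of the scale in every library, while SRGN and LAPTM5 are highest in H1792 after DAC.

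That fit, of 22603 genes, called 27 genes higher after DAC (0.119%) and 0 lower (0%) at an adjusted p under 0.05, and 0 lower also by limma's voom. Without adjustment, 1825 genes passed 0.05 as higher (8.07%) and 994 as lower (4.4%), which is the background of the unadjusted counts given for the lists. Of 20 pan-leukocyte genes 11 were expressed enough to be fitted, 10 with a positive estimate, with a median log2 change of 0.97 against 0.07 over all genes, and 0 of them passed (4 higher at an unadjusted p under 0.05). The filter took Mock and DAC together, so a gene near 0 in Mock was fitted only if it was higher after DAC. HCLS1, at an FPKM of 0 (CL1-0) to 0.174 (CL1-5) in Mock in these lines, is such a gene. This can raise the signs and medians of this list and of those below, and nothing is read from them. HCLS1, a cortactin-like protein of blood cells, had at least 2-fold more in 6 of 6 lines, such as 4 to 232 reads in PC9, with an adjusted p = 0.0857 from limma. ITGB2, the beta chain of leukocyte integrins, was also at least 2-fold higher in 6 of 6 lines, from 108 to 560 reads in CL1-5. CORO1A, an actin-binding protein, and DOCK2, an activator of Rac, were higher by that measure in 4 lines, PTPN6 (the phosphatase SHP-1) in 3, and ARHGDIB (an inhibitor of small GTPases) in 3, with ARHGDIB lower in CL1-5. Within a line, 8.67% (CL1-5) to 19.9% (A549) of all genes were higher by that measure. The share of all genes higher in several lines was not counted, so nothing is read from these numbers of lines, here or below. The summed FPKM of the 20 genes was 2.11 to 434 in Mock and 16.1 to 384 after DAC. Counts of list genes that passed, here and below, hold for this fit. With voom 6 passed as higher: CD7, CD79B, HCLS1, ITGB2, LCK and LBP, a gene of CD14 and TLR4 sensing. With H1792 added, CD79B and HCLS1 passed, and with a pseudocount of 0.01 CD7 and CD79B. No list gene passed with no block, a pseudocount of 1, no filter, quantile normalization or no trend, or with any 1 line left out.

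Lists of cell types gave few genes to test. Of 20 T cell genes 6 could be fitted and 6 had positive estimates (median 0.65, 0 passed, 3 higher at an unadjusted p under 0.05). CD7 had at least 2-fold more in 5 lines, as from 0 to 64 reads in H1299, and the kinase LCK in 3, as from 67 to 422 in PC9. LAT, the adaptor of T cell receptor signalling, had at least 2-fold more in 3 lines and less in CL1-0, with at most 20 reads in any library. Of 15 B cell genes 8 could be fitted (median 0.15), and CD79B was the 1 that passed. The summed FPKM of the B cell list was 0.714 to 6.90 in Mock and 2.17 to 7.75 after DAC. Of 25 myeloid genes 9 could be fitted (median 0.63, 0 passed, 5 higher at an unadjusted p under 0.05). CSF1R, the receptor of the macrophage growth factor, was at least 2-fold higher in 3 lines, from 2 to 66 reads in H1299. S100A9, a calcium-binding protein of neutrophils, was so in 3 lines, from 52 to 205 reads in PC9, and CYBB, a subunit of the phagocyte oxidase, in 3 lines. Of the 24 myeloid genes in the table, 10 to 13 were at 0 reads in a Mock library and 4 to 9 after DAC, and their summed FPKM was 0.248 to 30.0 in Mock and 0.410 to 43.8 after DAC.

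Of 14 cytotoxic lymphocyte genes 3 could be fitted, of 9 erythroid and platelet genes 3, and 0 passed in either list. The share of other cells in these cultures was not tested beyond these lists. Of 6 epithelial genes 6 were fitted and 0 passed. Their summed FPKM was 112 to 3589 in Mock outside CL1-0, where it was 0.986, and the 4 lung lineage genes summed to at most 0.780 in any library. The epithelial adhesion gene EPCAM was at least 2-fold higher in 3 lines, from 8 to 342 reads in H1299.

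Of the genes that work with SRGN, LAPTM5, TYROBP, CD14 and LYZ, 0 passed in the fit. Of 12 genes that build the sugar chains of serglycin, 12 were fitted and 0 passed (median log2 change 0.17). XYLT1, which starts those chains, was at least 2-fold higher in 3 lines, from 37 to 125 reads in A549. The 6 relatives and ubiquitin ligases of LAPTM5 had a median of 0.09, and 0 passed. Of 11 receptors and kinases of TYROBP, 4 were fitted (median 0.35) and 0 passed. HCST (DAP10), the sister adaptor of TYROBP, had at most 11 reads in any library. Of 10 genes of CD14 and TLR4 sensing, 9 were fitted (median 0.28) and 0 passed. TLR4, the receptor that CD14 serves, had 136 and 209 reads in PC9 and 410 and 527 in H1792 but 1 and 3 in A549, the line that holds CD14. LY96 (MD-2), the partner of TLR4, was at least 2-fold higher in 4 lines, from 1 to 17 reads in A549. Of 8 lysozyme relatives 2 were fitted and 0 passed.

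The genes with the most similar levels were found for 5 of the 7 genes, and CD3D and CD79A were too low for it. On log2(FPKM + 0.1) over the 12 libraries, and among 15795 genes, SRGN was most like GPR157, MLLT11 and SNRPA1 (Pearson r = 0.95, 0.95 and 0.94). LAPTM5 was most like LIPG, ACSL5 and SLC12A8 (0.96, 0.95 and 0.94). TYROBP was most like GTSF1 (0.97), PAGE1 (0.96) and GCNA (0.92), genes otherwise known from germ cells. CD14 was most like ENSG00000218048, RPL7AP75 and ATP2B1 (0.97 each), and LYZ like GGT6, KPNA4 and BATF2 (0.76 each). No leukocyte gene of the lists is among these 15. Nothing is read from this, since 15 genes are few among 15795. The search also needed a mean FPKM of at least 0.5, which left out PTPRC, SPI1, CD3E and MS4A1. The libraries come in pairs from a line, so that the points are not independent.

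The neighbours of the genes in GRCh37 were measured in the same libraries. SRGN (chr10:70847859-70864561, plus strand) lies 18707 bp from VPS26A, whose ratio of DAC to Mock was 1.18 in H1299, and 44559 bp from KIFBP, with 0.971. LAPTM5 (chr1:31205316-31230621, minus strand) lies 5642 bp from MATN1-AS1, with 27 and 26 reads in A549. TYROBP (chr19:36395303-36399197, minus strand) ends 24 bp from the end of HCST on the other strand, and LRFN3, 27063 bp on its other side, had a ratio of 0.663 in A549. CD14 (chr5:140011313-140013285, minus strand) lies 5040 bp from NDUFA2, with a ratio of 0.418 in A549. LYZ (chr12:69742161-69748014, plus strand) lies 5476 bp from YEATS4, with a ratio of 1.06 in PC9, and CD79A (chr19:42381349-42385439, plus strand) lies between RPS19 and ARHGEF1, with ratios of 0.719 and 0.960 in H1299. CD3D (chr11:118209790-118213420, minus strand) starts 1639 bp from CD3G. LYZ and LAPTM5 each overlap a long non-coding gene on the other strand, and whether the counting used strand is not given in the sources used here.

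Omni-ATAC-seq is a measure that the choice of genes did not use. For CL1-5 and PC9 the names inside the deposited peak lists are the reverse of the labels, so they are called the libraries labelled CL1-5 and PC9. Of 175 genes with a Mock FPKM of at least 5 in PC9 and under 0.1 in CL1-5, 74.3% had a peak within 1000 bp of a start site in the library labelled CL1-5 (Mock) and 25.1% in that labelled PC9. Of 125 genes with the opposite pattern, 28.8% and 53.6% did. Expression therefore goes against these labels, and counts are given under both readings. With 4 lines, the smallest p of a two-sided exact sign-flip permutation test is 0.125, so no test was made.

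Within 3000 bp of a start site, 2 of the 7 genes had a peak in A549 in Mock and 5 after DAC, against 57.6% and 62.4% of 35393 genes of the table with a position. In H1299 the numbers were 2 and 3, against 53.8% and 58.2%. In the libraries labelled CL1-5 they were 4 in Mock and 3 after DAC (61.9% and 64.2% of all genes), and in those labelled PC9 they were 3 and 4 (59.8% and 64.5%), which would be exchanged if the labels are. With 7 genes, nothing is read from these counts. The peak lists were longer after DAC in all 4 lines, with 58734 and 78199 peaks in A549 and 45354 and 63541 in H1299, and the part of list length in these counts was not tested.

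At SRGN a peak in the gene body, with its edge 5303 bp from the start in A549 in Mock, was present in A549 and in the libraries labelled PC9 under both treatments. A narrower peak over its near edge was in the Mock library labelled CL1-5, with none there after DAC. In H1299 the peak was absent from the Mock list and present after DAC (4.20-fold enrichment, in the 76.4th percentile of that list), the line in which SRGN went from 6 to 169 reads. At the SRGN start itself a peak was listed in A549 after DAC and in the library labelled CL1-5 in Mock. At LAPTM5 a peak 370 to 812 bp inside the gene was listed in every library but those of H1299, also in A549 in Mock, where the gene had 3 reads. In H1299, with no such peak listed, LAPTM5 went from 8 to 186 reads. A second peak 1106 bp upstream appeared after DAC in A549 (4.82-fold enrichment), and one 1127 bp upstream in the library labelled PC9 (3.48-fold).

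At TYROBP a peak 1034 bp upstream was listed in A549 after DAC and none in Mock within 3000 bp (3.09-fold enrichment, 21.8th percentile of its list), where the nearest upstream peak was 3642 bp away. H1299, with 66 reads of TYROBP in Mock, had a peak 1228 bp upstream in Mock and 1139 bp after DAC. Such a peak was also listed in Mock in the libraries labelled CL1-5 (1317 bp upstream) and PC9 (1180 bp), although TYROBP had 0 reads in Mock in both lines. After DAC it was 1249 bp upstream in the library labelled CL1-5, and in that labelled PC9 the nearest upstream peak was at 2996 bp. CD14 had a peak in 7 of 8 libraries, with the highest enrichment in A549 (7.26-fold in Mock, 5.62-fold after DAC) and none in H1299 in Mock. In H1299 a CD14 peak was listed after DAC (2.61-fold), while its reads went from 16 to 6. CD3D had a peak at its start, 2 bp inside the gene, in 1 library, that labelled PC9 after DAC (3.81-fold enrichment). CD79A had a peak 2086 bp upstream in H1299 in Mock and one 888 bp inside the gene after DAC, and A549 had one 1046 bp inside the gene after DAC. No peak within 3000 bp of LYZ was listed in any library.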

How the data were processed

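mRNA-seq of 12 and Omni-ATAC-seq of 8 libraries were analysed, each assigned to its line and treatment from the labels. The authors mapped trimmed mRNA-seq reads on hg19, by RSEM using bowtie2 (TopHat2 2.1.1 in the submitters' processing notes), counted them per gene and deposited FPKM values made with DESeq2 1.24.0. The same table, deposited by the authors, holds a mean normalized signal per gene, which was used, and their log2 fold changes, errors, test scores and p-values, which were not. For Omni-ATAC-seq the authors deposited broad peaks per library (BWA 0.7.17-r1188, MACS2 2.2.5, ChIPseeker 1.20.0) with a fold enrichment ratio and −log10 q-values. All value columns were tied to a sample (0 left over).

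Each FPKM was divided by what 1 read is worth for that gene and library, which gave whole reads for 100% of values (tolerance 0.01). Symbols missing from the table were taken from the annotation for 13267 genes. log2(FPKM + 0.1) was fitted for genes whose FPKM averaged 0.1 or more in 5 lines (without H1792), with limma 3.58.1 (R 4.3.3), blocking on line, with a trend in the variance, adjusted by Benjamini-Hochberg. Samples are paired because both treatments use the same cell line. After subtracting treatment means, libraries of a line had correlations of 0.700 to 0.903, against at most 0.165 between lines. Counting intervals are exact (Poisson, or Clopper-Pearson for ratios) and cover counting error only; a fold against 0 reads is a bound at a floor of 3 reads. The depth of the Omni-ATAC-seq libraries is unknown here. Positions come from GENCODE release 44 on GRCh37, and figures and counts from Python 3.11.15 with SciPy 1.17.1 and matplotlib 3.10.9.

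The genes and lists were chosen with earlier results of these data known. Named beside the 7 genes are the 3 genes most like each of them (mean FPKM of at least 0.5, genes with at least 10 reads in at least 3 libraries), their nearest neighbours, list genes past the threshold or at least 2-fold changed in 1 direction in at least 3 of 6 lines, and 12 receptor and lineage genes. Some genes and a sequence that the rule names are not reported here. Alternatives for the fit, the 2-fold counts and the peaks are given in the closing section.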

Additional observations from a re-analysis of the deposited data

Results flagged for a closer look

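In groups of 6 lines, the sample farthest from the rest was set against Dixon's critical value for each gene, for Mock, DAC and the change between them, in 21 groups. Chance alone passes that value in about 1 in 20 groups, and since the genes were chosen on these values, this is a way of listing samples and no test. TYROBP in Mock stood apart in H1299, at an FPKM of 1.27. CD14 stood apart in A549, at 4.23 in Mock and 7.38 after DAC. CD3D in Mock stood apart in CL1-5, at an FPKM of 0.0397, which is 1 read beside 5 libraries at 0, where any read gives the largest possible gap. CD79A after DAC stood apart in A549, at an FPKM of 0.395, from 15 reads.

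Some genes had estimates of opposite sign in different lines, and these differences were not tested, since each line has 1 library per treatment. SRGN was at least 2-fold higher in CL1-5, PC9 and H1299 and had a log2 change of -0.19 in CL1-0. LYZ was at least 2-fold higher in PC9 and had log2 changes of -0.25 in CL1-0 and -0.18 in H1792. CD14 was at least 2-fold lower in H1299 and had log2 changes of 0.79 in A549, 0.34 in PC9 and 0.0353 in H1792. CD79A was at least 2-fold lower in H1299 and had a log2 change of 0.64 in A549.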

How the results depend on the processing

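Of 119 alternative values of the counts, 92 kept within 1.5 times and 27 moved. The 92 include counts of 0 that stayed at 0. Among these are the numbers of the 7 genes lower in A549, CL1-0, CL1-5, PC9 and H1792, and most numbers of genes called lower over 5 lines. The number of genes called higher over 5 lines, 27, became 53 with H1792, 10 with no replicate block, 0 with a pseudocount of 1 or no filter, 17 with quantile normalization, 6 with no trend and 199 with limma voom on recovered reads, and 0 to 22 with 1 line left out (0 without A549 and without CL1-5). The number called lower was 0, and 0 to 1 with 1 line left out. Of the 7 genes, those at least 2-fold higher in A549 numbered 4 with a fold of 1.5 and 4 with FPKM rescaled to a common sum; CD14 and CD79A joined at a fold of 1.5. With at least 20 reads they numbered 1 in CL1-0, where LAPTM5 was lost, and 2 in PC9, where TYROBP and CD3D were lost. TYROBP was also lost in CL1-5, and CD3D in H1299. With a fold of 1.5 they numbered 2 in H1792. The 2 lower in H1299 became 1 with at least 20 reads, 0 with the ratio of FPKM + 0.1, 1 where the whole counting interval had to pass 1, and 1 with reads divided by 2, which was chosen after seeing the data. Lines with CD3D higher numbered 1 without H1299. Genes with a promoter peak numbered 3 in A549 after DAC and 0 in H1299 in Mock within 1000 bp, and with a q-value under 0.01 they numbered 1 in H1299 in Mock, 1 in H1299 after DAC and 2 in the library labelled CL1-5 in Mock. Of 77 alternative values of the mean log2 changes, 1 changed sign, that of CD79A, from 0.27 to -0.0826 with quantile normalization. The values with quantile normalization and voom were added after seeing the data. That of TYROBP, 2.90, was 0.97 with a pseudocount of 1 and 5.08 with 0.01, and that of CD3D, 1.18, was 2.60 with 0.01 and 2.48 with voom. Apart from these, the cause of a moved count was not tested. Depth limits CD3D, CD79A, CD14 outside A549, and TYROBP outside A549 and H1299, at 21 reads or fewer.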

Other observations

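T cell receptor constant genes were listed at levels unlike those of CD3D. TRBC2, the constant part of the receptor beta chain, had 3592 reads in PC9 in Mock and 2961 after DAC (FPKM 107 and 79.5), and 1414 and 1458 in H1792 (FPKM 35.4 and 37.7). It had 0 and 37 reads in CL1-5, and 0 in A549, CL1-0 and H1299. TRAC, the constant part of the alpha chain, had 21 and 26 reads in CL1-5, 1 and 1 in PC9, and 0 and 9 in H1792. CD3E had at most 2 reads in these lines. Both genes were chosen after their values were seen.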
